A study of Mus musculus with 36 samples.

Results

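Lungs of ovalbumin-challenged KitWsh mice that carried the engraftment labelled MCigeR were compared with lungs of ovalbumin-challenged KitWsh mice that carried no engraftment. The members were the 4 arrays titled for OVA and MCigeR and the 4 arrays titled for OVA and no engraftment, 8 of the 36 arrays of the series, and the main test was fitted on these 8 arrays alone. KitWsh_MCigeR OVA lungs bear the genotype label KitWsh/FcεRIγ-/- and the engraftment label MCigeR. KitWsh OVA lungs bear the KitWsh label and no engraftment. The labels do not spell out the engraftment code, and whether the FcεRIγ deficiency belongs to the engrafted cells or to the recipient cannot be told apart from them. KitWsh is the sash mutation at Kit, which leaves adult mice without most mast cells but also acts in every other cell that uses Kit. Both groups share that mutation, the C57BL/6 background, female sex and the immunization. Each mouse labelled OVA was immunized into the peritoneum with 50 µg of the egg protein ovalbumin (OVA, 0.1 ml per dose) on day 1, again on day 4 and finally on day 7. Challenge through the nose began on day 12 and was repeated every week over 9 weeks with 20 µg of OVA in a volume of 30 µl. Mice labelled PBS had no OVA at immunization or at challenge, with buffered saline in its place. 2 further sets of arrays were used for context, namely 4 KitWsh_MC OVA arrays, from KitWsh lungs with the engraftment labelled MC, and the PBS-treated KitWsh_MCigeR and KitWsh arrays, 3 of each. For clock levels alone, KitWsh lungs with the engraftment labelled MCifngR and PBS-treated wild-type lungs without engraftment are also given. The labels call the mice age-matched without giving the age, and they give neither the hour at which lungs were taken nor a statement that each array is a separate animal, so the spread behind each p-value is that between arrays, which may be technical.

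Mast cells are tissue-resident cells that store histamine and proteases in granules and are armed by IgE bound to the receptor FcεRI. The gamma chain of that receptor, encoded by Fcer1g, carries the activating signal and is shared by activating IgG receptors on macrophages, neutrophils and natural killer cells, so its loss silences IgE signalling and much of IgG signalling in a cell. Engrafting KitWsh mice with cultured mast cells is used to ask which features of a response need mast cells, and engrafting cells that lack one receptor asks which need that receptor.

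All 8 arrays had the profile of lung from female animals. Sftpc, the surfactant protein of alveolar type 2 cells, measured 15.05 to 15.42 and Scgb1a1, the secretory protein of club cells, 15.42 to 15.73 on the deposited log2 scale, and Xist measured 12.17 to 13.00. Kit itself lay between 5.38 and 6.74 on these arrays. Arrays correlated at 0.968 to 0.986 within KitWsh_MCigeR OVA, at 0.964 to 0.993 within KitWsh OVA and at 0.955 to 0.981 between them. The highest value, 0.993, was that of KitWsh OVA arrays 2 and 4, and the labels do not say whether these are separate animals. The beta-actin 3' minus 5' control value, a measure of RNA integrity, averaged 1.95 ± 0.495 in KitWsh_MCigeR OVA and 1.74 ± 0.612 in KitWsh OVA (SD, n = 4 each; exact permutation test, two-sided, p = 0.6, where the smallest possible p is 0.0286). The same value for GAPDH averaged 1.55 ± 0.476 in KitWsh_MCigeR OVA and 1.03 ± 0.863 in KitWsh OVA (exact permutation test, two-sided, p = 0.314).

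Of 11069 genes tested, 176 passed a Benjamini-Hochberg adjusted p under 0.05 (1.59%, called below). Of all genes, 97 (0.876%) were higher and 79 (0.714%) lower in KitWsh_MCigeR OVA than in KitWsh OVA, and 55.1% of those called were higher. Of the 15 called genes of largest increase and the 15 of largest decrease, 8 were on the circadian list, 2 on the heat shock list, 2 on the list of glucocorticoid-responsive genes and 2 on the neutrophil list, and no B cell gene was among them. At an unadjusted p under 0.05, which is given below beside several lists, 8.75% of all genes were higher and 5.95% lower, 14.7% in all. Over all genes tested the median log2 difference was 0.04. The arrays of the groups did not overlap for 595 genes that were higher (5.38%) and 346 that were lower (3.13%). Among 34 gene lists, the circadian list held the most called genes, 12 of 16 tested.

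The circadian clock runs in nearly every cell as a feedback loop. CLOCK or NPAS2, paired with ARNTL, activates genes through E-box sequences, among them Per3, Cry1, Tef, Dbp, Nr1d1 and Nr1d2. The products of Nr1d1 and Nr1d2 (REV-ERB proteins) in turn repress Arntl and Nfil3 at ROR elements, while DBP, TEF and HLF activate and NFIL3 represses at D-box sequences. The promoters below, 300 bases each from 250 before to 50 after the RefSeq start (build GRCm38.p6), are shown because their genes sit on different arms of this loop, with 2 heat shock genes for comparison. Capitals mark the match named on each line, and all letters were searched on both strands.

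Per3, chr4:151044616-151044915, minus strand, D-box TTATGNAA: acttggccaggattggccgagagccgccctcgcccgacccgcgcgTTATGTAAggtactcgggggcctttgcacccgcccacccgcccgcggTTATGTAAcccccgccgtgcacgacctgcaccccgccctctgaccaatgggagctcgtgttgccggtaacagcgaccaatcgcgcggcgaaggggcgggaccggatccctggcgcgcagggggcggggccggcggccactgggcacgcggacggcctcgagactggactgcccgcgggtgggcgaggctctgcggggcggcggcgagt
Tef, chr15:81802423-81802722, plus strand, E-box CACGTG: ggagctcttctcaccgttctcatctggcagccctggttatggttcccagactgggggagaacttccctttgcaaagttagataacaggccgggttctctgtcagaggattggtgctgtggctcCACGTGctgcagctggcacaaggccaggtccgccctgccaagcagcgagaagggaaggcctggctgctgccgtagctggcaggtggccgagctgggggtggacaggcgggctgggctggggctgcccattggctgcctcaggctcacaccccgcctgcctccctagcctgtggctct
Arntl, second listed start, chr7:113207261-113207560, plus strand, ROR element TAGGTCA: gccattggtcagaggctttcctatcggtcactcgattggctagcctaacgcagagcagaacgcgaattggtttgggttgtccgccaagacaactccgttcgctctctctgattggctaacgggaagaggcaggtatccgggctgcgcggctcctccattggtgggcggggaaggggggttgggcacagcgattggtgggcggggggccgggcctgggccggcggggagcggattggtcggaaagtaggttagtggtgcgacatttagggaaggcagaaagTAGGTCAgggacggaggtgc
Nfil3, chr13:52980990-52981289, minus strand, ROR element on the opposite strand: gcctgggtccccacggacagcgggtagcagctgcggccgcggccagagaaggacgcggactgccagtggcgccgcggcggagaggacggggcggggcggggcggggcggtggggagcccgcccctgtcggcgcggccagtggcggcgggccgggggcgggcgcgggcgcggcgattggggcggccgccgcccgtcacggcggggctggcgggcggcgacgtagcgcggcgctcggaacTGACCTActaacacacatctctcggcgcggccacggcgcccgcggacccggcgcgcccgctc
Hspa1b, chr17:34959189-34959488, minus strand, heat shock element GAANNTTC: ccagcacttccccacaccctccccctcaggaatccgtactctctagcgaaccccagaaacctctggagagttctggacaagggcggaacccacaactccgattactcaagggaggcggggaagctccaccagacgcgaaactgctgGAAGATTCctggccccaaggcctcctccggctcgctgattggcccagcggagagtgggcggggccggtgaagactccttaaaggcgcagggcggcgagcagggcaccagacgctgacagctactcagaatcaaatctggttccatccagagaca
Hsph1, chr5:149636287-149636586, minus strand, heat shock element: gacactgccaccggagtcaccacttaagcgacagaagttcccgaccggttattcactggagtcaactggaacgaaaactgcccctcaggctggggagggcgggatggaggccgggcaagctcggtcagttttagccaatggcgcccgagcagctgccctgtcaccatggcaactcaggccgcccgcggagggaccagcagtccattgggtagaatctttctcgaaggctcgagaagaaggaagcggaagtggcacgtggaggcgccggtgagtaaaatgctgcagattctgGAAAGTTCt

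Per3 held 2 D-box matches, starting at bases 46 and 93 of its window. Of the 12 called clock genes 11 had a promoter window, Bhlhe40 being the exception. An E-box match lay in windows of Tef and Cry1, a D-box match in that of Per3, and a ROR match in windows of Arntl and Nfil3. Over 32851 promoter windows of mouse genes, 7.15% held the E-box letters, 3.38% the D-box letters and 2.61% the ROR letters. The heat shock letters were present in windows of 4 of 5 called heat shock genes (Hsph1, Hspa1b, Hspa1a and Hspb1) and in 7.86% of all windows. Genes were counted if any of their windows matched, whereas the percentages are of windows, so these are unlike measures. The matches of the closely related Hspa1a and Hspa1b both start at base 147. The Hsph1 window also held an E-box match, which is printed in lower case. The ROR and heat shock letters were chosen after values were seen. All these matches describe the sequences, and no test was made of them.

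5 clock genes rose in KitWsh_MCigeR OVA, among them Npas2, Clock and their partner Arntl. Npas2 measured 5.61, 6.36, 6.05 and 5.77 in KitWsh_MCigeR OVA lungs, against 2.46, 2.30, 2.35 and 2.28 in KitWsh OVA lungs. The lowest KitWsh_MCigeR OVA array stood more than 3 log2 units above the highest KitWsh OVA array, and the KitWsh OVA arrays lay close to the scale's lowest value of 2.19. The difference was 3.60 ± 0.17 (log2 difference ± SE, adjusted p = 3.31e-06), and because every KitWsh OVA array was under the detection filter of log2 5, the fold is given as at least 1.93. Arntl, the partner of CLOCK and NPAS2, measured 7.68, 7.88, 7.76 and 8.18 in KitWsh_MCigeR OVA, against 4.70, 4.49, 3.49 and 4.77 in KitWsh OVA. It was higher by 3.51 ± 0.26 (adjusted p = 8.49e-05), at least 7.33-fold. Nfil3 measured 6.29, 6.07, 6.20 and 6.29 in KitWsh_MCigeR OVA, against 3.21, 3.82, 2.64 and 3.47 in KitWsh OVA, a difference of 2.93 ± 0.22 (adjusted p = 8.49e-05), at least 2.32-fold. Arntl and Nfil3, the called clock genes with a ROR match above, both lay higher on every KitWsh_MCigeR OVA array. Npas2, Clock and Cry1 were higher as well without a ROR match, and the window of the first listed start of Arntl held none. Levels were read per gene and not per start. Any link between match and direction was not tested. Clock was 1.94-fold higher (9.60 ± 0.13 in KitWsh_MCigeR OVA and 8.65 ± 0.07 in KitWsh OVA, SD, n = 4 each; adjusted p = 0.00299 by limma) and Cry1, a repressor of the loop, 1.79-fold higher (9.85 ± 0.12 in KitWsh_MCigeR OVA and 9.01 ± 0.21 in KitWsh OVA; adjusted p = 0.0164 by limma).

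7 other clock genes, outputs or repressors of the loop, fell. Dbp measured 5.46, 5.99, 6.23 and 5.87 in KitWsh_MCigeR OVA, against 11.75, 11.73, 12.01 and 12.01 in KitWsh OVA. No other gene tested differed as much. The log2 difference was -5.99 ± 0.17 (adjusted p = 5.02e-08), 63.5-fold lower. Nr1d1 measured 2.82, 2.89, 2.43 and 2.82 in KitWsh_MCigeR OVA, against 6.99, 8.09, 8.24 and 8.40 in KitWsh OVA, which is at least 7.61-fold lower (log2 difference -5.19 ± 0.28, adjusted p = 8.3e-06). Its paralogue Nr1d2 stayed well above the filter in both groups, at 9.71, 10.20, 10.55 and 10.45 in KitWsh_MCigeR OVA and at 12.87, 12.38, 13.18 and 12.86 in KitWsh OVA, and was 6.05-fold lower (-2.60 ± 0.22, adjusted p = 0.000185). Per3, which carries the paired D-box letters shown above, measured 6.30, 7.16, 6.71 and 6.84 in KitWsh_MCigeR OVA and 9.09, 9.21, 9.53 and 9.18 in KitWsh OVA, 5.65-fold lower (adjusted p = 8.49e-05). The D-box activators Tef and Hlf were 2.90-fold lower (9.72 ± 0.10 in KitWsh_MCigeR OVA and 11.26 ± 0.24 in KitWsh OVA; adjusted p = 0.000461 by limma) and 3.34-fold lower (adjusted p = 0.0331). Hlf measured 6.33, 6.63, 7.47 and 7.20 in KitWsh_MCigeR OVA, against 9.64, 8.19, 8.49 and 8.27 in KitWsh OVA, and lost its call when any of 6 arrays was left out. Bhlhe40, an E-box repressor, was 1.67-fold lower (adjusted p = 0.0349). The 4 clock genes that did not pass were Per1 (log2 difference -1.52, adjusted p = 0.103), Ciart (-1.22, 0.106), Per2 (-0.71, 0.156) and Cry2 (-0.34, 0.31). Leaving out 1 array at a time left 4 or 5 clock genes higher and 5 to 8 lower.

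**Figure D1:**
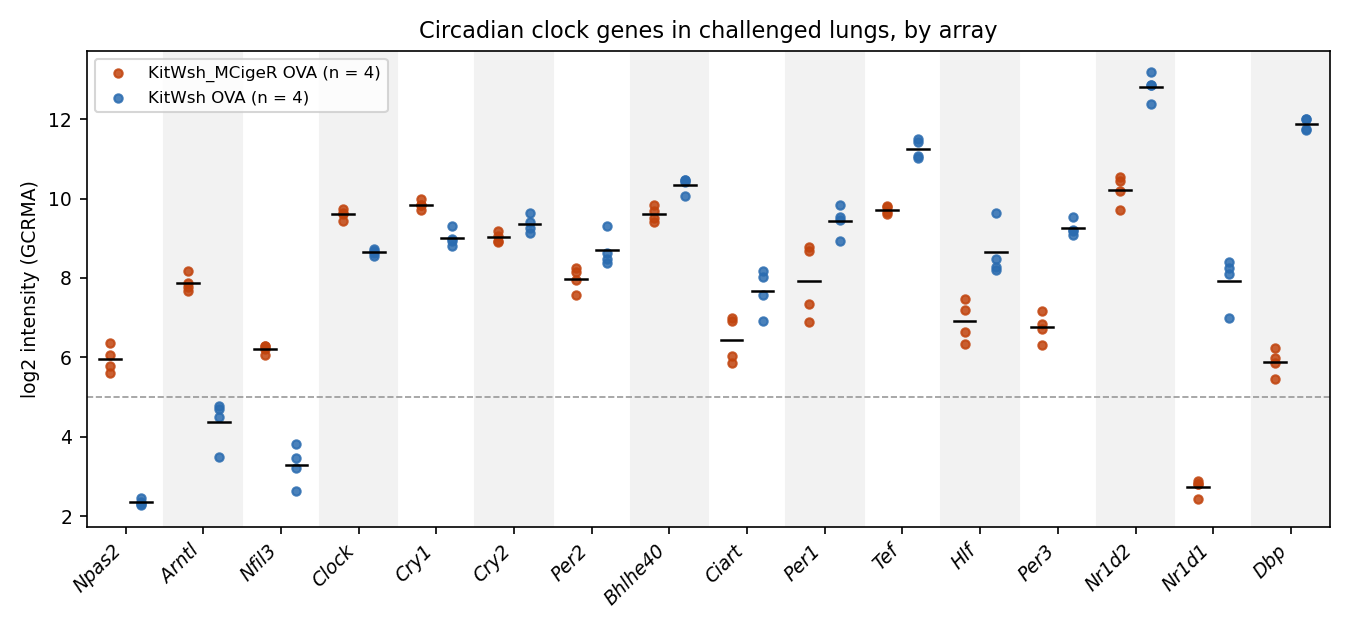
Deposited log2 intensity (y axis, GCRMA) of the 16 tested circadian clock genes (x axis, in order of their difference) on the 4 KitWsh_MCigeR OVA arrays (orange) and the 4 KitWsh OVA arrays (blue). Points are arrays, bars are group means and the dashed line is the filter at log2 5. Npas2, Arntl and Nfil3 lie above 5 on each KitWsh_MCigeR OVA array and below it on each KitWsh OVA array, while Dbp lies near 6 in KitWsh_MCigeR OVA and near 12 in KitWsh OVA.

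Clock levels were set out as a description, also for groups not otherwise used here. Dbp averaged 5.89 ± 0.32 in KitWsh_MCigeR OVA, 9.66 ± 0.36 in KitWsh_MC OVA and 11.87 ± 0.15 in KitWsh OVA (SD, n = 4 each). The KitWsh_MCigeR PBS arrays measured 7.32, 9.12 and 6.29, where the middle value is from an array of low quality described below, and KitWsh PBS averaged 10.94 ± 0.62 (n = 3). Dbp was thus low in KitWsh_MCigeR lungs with and without challenge, and KitWsh_MC OVA lay between the other challenged groups. Arntl ran the opposite way, with 7.87 ± 0.22 in KitWsh_MCigeR OVA, 5.09 ± 0.84 in KitWsh_MC OVA and 4.36 ± 0.60 in KitWsh OVA. High Arntl was not particular to KitWsh_MCigeR lungs. It averaged 7.51 ± 0.79 in OVA lungs with the MCifngR engraftment and 7.43 ± 0.32 in PBS-treated wild-type lungs (n = 4 each). Dbp averaged 7.63 ± 1.35 and 9.37 ± 0.5 in these groups. PBS lungs with the MCifngR engraftment had Arntl at 4.69 ± 0.35 and Dbp at 11.01 ± 0.41 (n = 3). The hour of lung collection is not given in the labels, and its part in these differences was not tested.

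Heat shock proteins fold and protect other proteins and are induced by heat, handling stress and other damage to proteins. Of 17 listed chaperone genes 5 were higher and none was lower in KitWsh_MCigeR OVA at an adjusted p under 0.05, where 10 were higher at an unadjusted p under 0.05 (8.75% of all genes), and the list's median log2 difference was 0.48, against 0.04 for all genes tested. Hspa1b, the stress-induced HSP70, measured 12.28, 12.15, 11.28 and 11.74 in KitWsh_MCigeR OVA lungs, against 9.02, 8.26, 8.50 and 8.58 in KitWsh OVA lungs. Every KitWsh_MCigeR OVA array lay above every KitWsh OVA array by more than 2 log2 units, and the fold was 9.66 (log2 difference 3.27 ± 0.23, adjusted p = 7.43e-05). Its neighbour Hspa1a, which encodes a nearly identical protein and whose probe sets may share signal with Hspa1b, measured 9.57, 8.91, 7.61 and 8.73 in KitWsh_MCigeR OVA and 6.21, 5.83, 5.95 and 5.43 in KitWsh OVA, 7.21-fold higher (adjusted p = 0.00291). Hsph1, the HSP110 that recharges HSP70, measured 11.31, 11.06, 11.18 and 11.25 in KitWsh_MCigeR OVA and 9.52, 9.42, 9.42 and 9.23 in KitWsh OVA, a 3.49-fold difference (1.80 ± 0.12, adjusted p = 5.15e-05). Arrays within each group agreed closely for this gene, within 0.3 log2 units. The HSP40 gene Dnajb1 was 1.95-fold higher (10.58 ± 0.24 in KitWsh_MCigeR OVA and 9.61 ± 0.21 in KitWsh OVA; SD, n = 4 each; adjusted p = 0.0164 by limma) and the small heat shock gene Hspb1 1.92-fold higher (11.42 ± 0.21 in KitWsh_MCigeR OVA and 10.48 ± 0.33 in KitWsh OVA; adjusted p = 0.0313 by limma). The count of called heat shock genes ran from 3 to 6 with 1 array left out, and from 2 with no filter on low values to 7 with an intensity trend and robust prior in the fit. The mean over the 17 genes ran from 11.25 to 11.71 on KitWsh_MCigeR OVA arrays and from 10.66 to 10.68 on KitWsh OVA arrays. The cold-inducible RNA-binding protein gene Cirbp, which falls when temperature rises, measured 7.02, 7.04, 6.49 and 6.44 in KitWsh_MCigeR OVA and 7.54, 8.68, 8.85 and 8.42 in KitWsh OVA (log2 difference -1.62 ± 0.28, adjusted p = 0.018), and lost its call when any of 4 arrays was left out (largest adjusted p = 0.0723).

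Glucocorticoid-responsive genes rose in part. Of 11 tested, 4 were higher, where 0.876% of all genes were, and none was lower. At an unadjusted p under 0.05, 5 were higher and 1 lower (8.75% and 5.95% of all genes), and the median was 0.42. Cdkn1a, the cell cycle inhibitor p21, measured 11.29, 11.25, 10.81 and 10.85 in KitWsh_MCigeR OVA, against 8.80, 9.00, 8.55 and 9.16 in KitWsh OVA, 4.5-fold higher (2.17 ± 0.17, adjusted p = 0.000139). Zbtb16, a transcription factor strongly induced by glucocorticoids, measured 11.18, 11.23, 12.15 and 11.83 in KitWsh_MCigeR OVA and 10.74, 9.25, 9.50 and 9.21 in KitWsh OVA (1.92 ± 0.35, adjusted p = 0.0234). KitWsh OVA array 1 was the nearest to the other group, and the groups did not overlap. Fkbp5, the receptor co-chaperone, was 1.87-fold higher (8.76 ± 0.29 in KitWsh_MCigeR OVA and 7.85 ± 0.15 in KitWsh OVA; adjusted p = 0.0237 by limma, n = 4 each) and Pdk4, a fuel-switching kinase, 2.33-fold higher (7.38 ± 0.30 in KitWsh_MCigeR OVA and 6.16 ± 0.47 in KitWsh OVA; adjusted p = 0.0317). Zbtb16 lost its call when any of 4 arrays was left out, Fkbp5 and Pdk4 when any of 5 was, and the list's count ran from 1 to 5 over the 8 omissions. Per1, a clock gene that glucocorticoids also induce, was on this list as well and had a log2 difference of -1.52.

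Other genes among the 15 largest increases did not fall under a list. Spon2, a secreted matrix protein of innate immunity, measured 6.60, 7.00, 6.67 and 6.33 in KitWsh_MCigeR OVA, against 3.48, 3.10, 2.50 and 3.11 in KitWsh OVA (3.60 ± 0.21, adjusted p = 1.63e-05, at least 3.14-fold). Cyp1a1, the aryl hydrocarbon receptor's best known target, measured 7.48, 8.31, 9.02 and 8.61 in KitWsh_MCigeR OVA and 5.44, 4.47, 5.92 and 5.12 in KitWsh OVA, 8.69-fold higher (3.12 ± 0.36, adjusted p = 0.00171). Rasl11a, a small RAS-like GTPase, was 7.11-fold higher, at 8.29, 8.33, 8.63 and 8.83 in KitWsh_MCigeR OVA and at 5.54, 5.64, 5.88 and 5.70 in KitWsh OVA (adjusted p = 8.3e-06). Npr3, the natriuretic peptide clearance receptor, measured 9.02, 9.41, 9.98 and 9.66 in KitWsh_MCigeR OVA and 7.59, 6.78, 7.61 and 7.08 in KitWsh OVA, 4.77-fold higher (adjusted p = 0.00128). The vasodilator peptide gene Adm differed by 2.02 ± 0.31 (adjusted p = 0.011), with Sowahb at 2.38 ± 0.29 (adjusted p = 0.00291) and Gdpd2 at 2.03 ± 0.28 (adjusted p = 0.00514). None of these groups of arrays overlapped. Marco, a scavenger receptor of alveolar macrophages, measured 8.36, 7.07, 7.26 and 7.30 in KitWsh_MCigeR OVA and 6.09, 5.76, 4.17 and 5.80 in KitWsh OVA (2.04 ± 0.41, adjusted p = 0.0378). It was the only called gene of 11 tested alveolar macrophage genes, whose median was -0.03, and its call was lost when any of 6 arrays was left out.

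Several genes of B cells, neutrophils and monocytes fell in KitWsh_MCigeR OVA lungs. In whole lung, fewer cells of a type and less RNA per cell cannot be told apart. Of 14 tested B cell genes 6 fell, none rose, and all 14 differences were negative (13 at an unadjusted p under 0.05, where 5.95% of all genes were lower), with a median of -1.19. Bank1, a B cell receptor scaffold, measured 6.82, 6.49, 6.71 and 6.94 in KitWsh_MCigeR OVA, against 7.96, 8.30, 7.66 and 8.57 in KitWsh OVA (-1.38 ± 0.20, adjusted p = 0.0064). Ms4a1, which encodes CD20, measured 9.08, 8.73, 8.86 and 9.07 in KitWsh_MCigeR OVA and 9.82, 10.68, 9.56 and 10.78 in KitWsh OVA (-1.28 ± 0.26, adjusted p = 0.0416). The KitWsh_MCigeR OVA arrays lay close together for both genes and the KitWsh OVA arrays spread over about 1 log2 unit, with arrays 2 and 4 highest. The complement receptor Cr2 (-1.32, adjusted p = 0.0298), the transcription coactivator Pou2af1 (-1.25, 0.0258), the inhibitory receptor Cd22 (-1.20, 0.0313) and the receptor subunit Cd79b (-1.15, 0.0326) also fell. The mean over the 15 listed B cell genes on the array ran from 6.70 to 7.28 in KitWsh_MCigeR OVA and from 7.41 to 8.55 in KitWsh OVA. The count rested on individual arrays: leaving out 1 array at a time gave 1 to 9 B cell genes, 1 of them without KitWsh_MCigeR OVA array 1, 2 or 3 or KitWsh OVA array 2 or 4, and 3 without KitWsh_MCigeR OVA array 4. No B cell gene was called with no filter on low values (limma; 9 lower at an unadjusted p under 0.05) or when all 36 or 35 arrays shared the estimate of spread (10 at an unadjusted p under 0.05 in each).

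Among 8 tested neutrophil genes 5 fell and none rose, with a median of -1.21, where 0.714% of all genes fell. Ngp and Camp, granule proteins made by developing neutrophils, measured 6.52, 6.46, 7.00 and 7.20 (Ngp) and 3.83, 4.34, 4.21 and 4.96 (Camp) in KitWsh_MCigeR OVA. In KitWsh OVA they measured 8.59, 8.96, 8.10 and 8.72 (Ngp) and 7.09, 7.15, 5.59 and 7.05 (Camp). Ngp was lower by -1.80 ± 0.22 (adjusted p = 0.00291), and Camp was at least 3.29-fold lower (-2.39 ± 0.35, adjusted p = 0.008). The calprotectin subunit S100a8 measured 10.97, 10.97, 11.08 and 11.42 in KitWsh_MCigeR OVA and 12.72, 12.35, 11.94 and 12.60 in KitWsh OVA (adjusted p = 0.00707), and its partner S100a9 was 2.91-fold lower (adjusted p = 0.0184). The gelatinase gene Mmp9 was 2.18-fold lower (adjusted p = 0.0151). Csf3r, the receptor for the neutrophil growth factor, did not pass (-0.80, adjusted p = 0.145), nor did Ltf (0.17). Between 3 and 5 of the 8 genes were called when each array in turn was left out. With no filter on low values none of 12 was called (limma; 6 lower at an unadjusted p under 0.05), and 1 was when all 36 arrays shared the estimate of spread.

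3 genes known from monocytes were among the 15 largest decreases, chosen by size and not as a list. Treml4 measured 4.65, 4.53, 4.85 and 4.53 in KitWsh_MCigeR OVA, against 6.08, 6.73, 6.85 and 6.86 in KitWsh OVA (at least 3.09-fold lower, adjusted p = 0.000429). Adgre4 measured 6.75, 5.98, 6.22 and 6.10 in KitWsh_MCigeR OVA and 8.00, 8.64, 8.38 and 8.59 in KitWsh OVA (-2.14 ± 0.20, adjusted p = 0.000429). Ifitm6 measured 5.34, 5.29, 5.50 and 5.83 in KitWsh_MCigeR OVA and 7.38, 8.04, 7.42 and 7.95 in KitWsh OVA (-2.21 ± 0.19, adjusted p = 0.000261). All 3 kept their calls whichever of the 8 arrays was left out. The separate list of recruited macrophage and monocyte genes had no call in either direction among 15 tested and a median of 0.15, with 1 gene higher and 1 lower at an unadjusted p under 0.05. Slc4a1, the red cell anion exchanger, measured 6.58, 5.89, 6.23 and 6.18 in KitWsh_MCigeR OVA and 7.95, 7.90, 8.19 and 7.63 in KitWsh OVA (-1.70 ± 0.17, adjusted p = 0.000922). A marker of blood was thus lower beside these leukocyte genes in challenged lungs, and its part in them was not tested. The other red cell gene tested, Alas2, had a difference of -1.31 (adjusted p = 0.127).

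**Figure D2:**
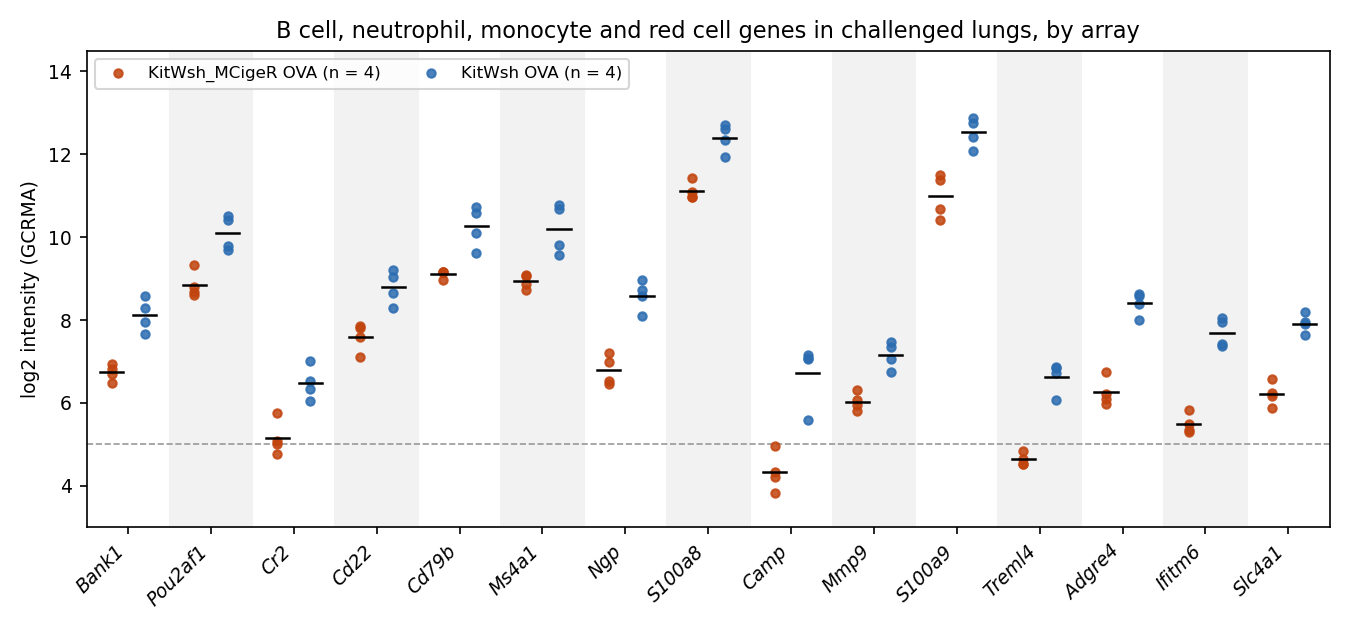
Deposited log2 intensity (y axis, GCRMA) of the 6 called B cell genes, the 5 called neutrophil genes, Treml4, Adgre4, Ifitm6 and Slc4a1 (x axis) on the 4 KitWsh_MCigeR OVA arrays (orange) and the 4 KitWsh OVA arrays (blue). Points are arrays and bars group means. Each gene's KitWsh_MCigeR OVA arrays lie below its KitWsh OVA arrays. For Ifitm6 the highest KitWsh_MCigeR OVA array is at 5.83 and the lowest KitWsh OVA array at 7.38, and for Cr2 these are at 5.77 and 6.04.

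All 13 tested T cell genes had negative differences (median -0.71, 9 at an unadjusted p under 0.05, where 5.95% of all genes were lower). Of the 13, 2 fell at an adjusted p under 0.05, where 0.714% of all genes did. These were Cd8a, the coreceptor of cytotoxic T cells (5.31 ± 0.23 in KitWsh_MCigeR OVA and 6.38 ± 0.38 in KitWsh OVA; adjusted p = 0.0282 by limma, n = 4 each), and the costimulatory receptor Cd28 (5.44 ± 0.28 in KitWsh_MCigeR OVA and 6.68 ± 0.54 in KitWsh OVA; adjusted p = 0.0418). With 1 array left out, 0 to 4 T cell genes were called, and 0 whichever KitWsh_MCigeR OVA array was left out. Of 9 natural killer and cytotoxic genes, the chemokine gene Ccl5 was called (-1.34, adjusted p = 0.0378), and its call was lost when any of 6 arrays was left out. Tlr1, a receptor for bacterial lipoproteins, measured 4.18, 2.98, 2.76 and 2.75 in KitWsh_MCigeR OVA and 6.60, 7.26, 4.83 and 7.34 in KitWsh OVA, at least 2.84-fold lower (adjusted p = 0.012). KitWsh_MCigeR OVA array 1 and KitWsh OVA array 3 were the nearest to each other, and the call was lost without KitWsh_MCigeR OVA array 4 or KitWsh OVA array 2 (largest adjusted p = 0.0569). Tspan4, a membrane tetraspanin, was lower with little spread, at 9.23, 9.06, 9.00 and 8.91 in KitWsh_MCigeR OVA and at 10.59, 10.74, 11.04 and 10.77 in KitWsh OVA (-1.73 ± 0.14, adjusted p = 0.000133). The germ cell gene Tex11, which lay near the filter, was at least 1.12-fold lower (adjusted p = 0.00128). Plasma cell genes had no call among 11 tested (1 higher and 3 lower at an unadjusted p under 0.05, median -0.13), and cell division genes none among 13 (3 lower at an unadjusted p under 0.05, median -0.45).

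Mast cell genes bore on the engraftment itself. Of 18 listed genes 16 were named on the array, 10 lay under log2 5 on all 8 arrays, and 4 passed the filter. Of these 4, Rab27b, a GTPase of granule secretion that other lung cells also express, rose, with 7.95, 8.18, 7.80 and 8.11 in KitWsh_MCigeR OVA and 7.45, 7.09, 7.15 and 7.11 in KitWsh OVA (0.81 ± 0.14, adjusted p = 0.0186). Hdc, the histamine-making enzyme, measured 10.69, 10.66, 11.02 and 10.66 in KitWsh_MCigeR OVA and 10.45, 9.97, 9.98 and 9.99 in KitWsh OVA (0.66 ± 0.15, adjusted p = 0.0708). Gata2, a transcription factor of mast cells and endothelium, differed by 0.69 ± 0.18 (adjusted p = 0.103), and Kit by -0.35 (adjusted p = 0.562). The chymase gene Cma1, a granule protease of connective tissue mast cells, measured 4.67, 4.60, 5.03 and 5.79 in KitWsh_MCigeR OVA, against 4.40, 4.12, 2.84 and 2.82 in KitWsh OVA. It did not pass the filter and was not tested, and the KitWsh_MC OVA arrays measured 6.86, 7.93, 7.31 and 7.81. The carboxypeptidase Cpa3 averaged 4.49 ± 0.74 in KitWsh_MCigeR OVA and 3.17 ± 0.16 in KitWsh OVA, with 5.36, 6.16, 6.30 and 7.39 on the KitWsh_MC OVA arrays. The tryptase Tpsb2 averaged 3.24 ± 0.17 in KitWsh_MCigeR OVA and 2.41 ± 0.06 in KitWsh OVA, with 5.23, 4.86, 3.60 and 5.85 in KitWsh_MC OVA. Each of these 3 proteases lay higher on every KitWsh_MCigeR OVA array than on any KitWsh OVA array and lower than on any KitWsh_MC OVA array, by as little as 3.48 against 3.40 for Cpa3. Other list members under the filter did not all go this way. Fcer1a and Ms4a2, given below, had lower means in KitWsh_MCigeR OVA than in KitWsh OVA. Mcpt4, Tph1 and Slc18a2 did not pass the filter either. Tpsab1, Mcpt1, Mcpt2 and Mrgprb1 stood at the scale's floor of 2.19 to 2.20 in both groups. The mean level of the 16 genes ran from 4.27 to 4.50 in KitWsh_MCigeR OVA, from 3.96 to 4.29 in KitWsh OVA and from 4.74 to 5.20 in KitWsh_MC OVA, so that KitWsh_MCigeR OVA and KitWsh OVA overlapped.

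**Figure D3:**
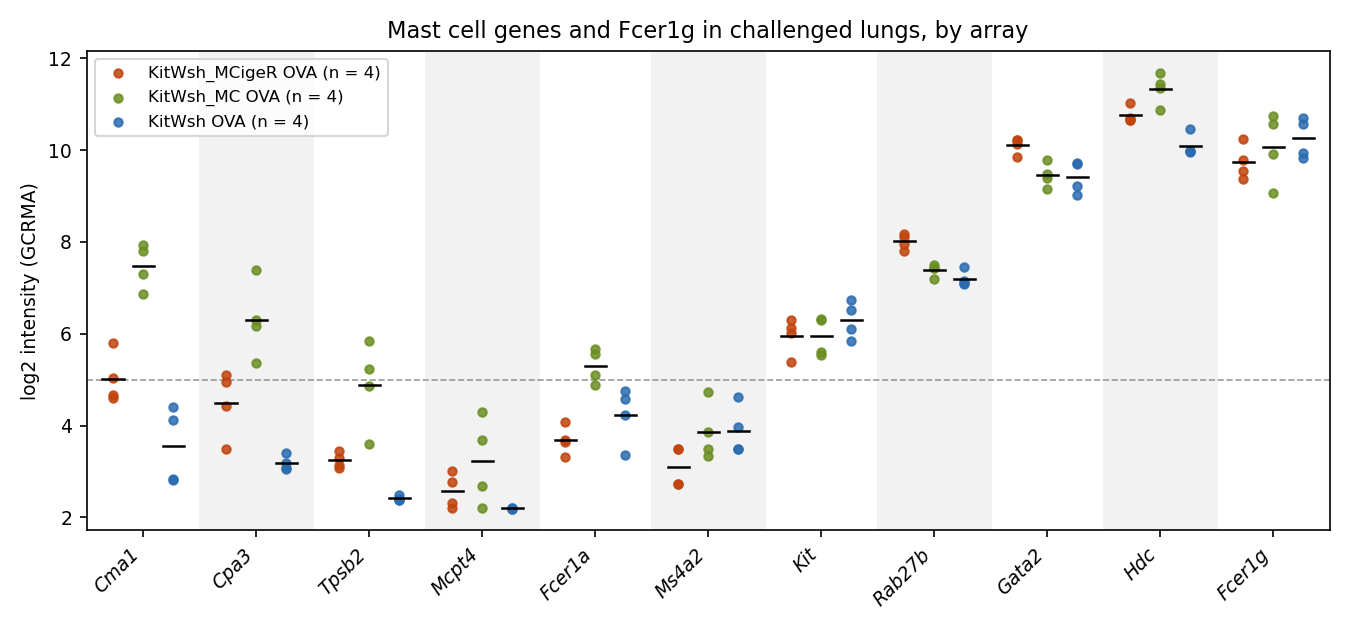
Deposited log2 intensity (y axis, GCRMA) of 10 mast cell genes and Fcer1g (x axis) on the KitWsh_MCigeR OVA (orange), KitWsh_MC OVA (green) and KitWsh OVA (blue) arrays, 4 of each. Points are arrays, bars group means and the dashed line the filter at log2 5. For Cma1, Cpa3 and Tpsb2 the KitWsh_MC OVA means are highest and the KitWsh_MCigeR OVA means lie between them and those of KitWsh OVA.

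Fcer1g, the gene named in the genotype label, was measured at 10.25, 9.37, 9.55 and 9.79 in KitWsh_MCigeR OVA lungs, against 9.93, 10.70, 9.83 and 10.57 in KitWsh OVA lungs. The groups overlapped and the difference was -0.52 ± 0.25 (adjusted p = 0.369). Whole lung holds many macrophages and neutrophils that express the gene, and the files do not say which part of the transcript the probes read, so this level does not check the genotype of the engrafted cells. No gene of 8 tested Fc receptor genes passed, and 2 were lower at an unadjusted p under 0.05. The low-affinity IgG receptor Fcgr3, which signals through the gamma chain, differed by -0.03 (adjusted p = 0.967), and the B cell gene Fcrla by -1.02 (adjusted p = 0.096). Fcer1a and Ms4a2, the other chains of FcεRI, lay under the filter, at 3.68 ± 0.31 (Fcer1a) and 3.10 ± 0.44 (Ms4a2) in KitWsh_MCigeR OVA, against 4.23 ± 0.62 and 3.89 ± 0.54 in KitWsh OVA. The deleted Fcer1g allele was made in another strain before it was moved onto C57BL/6, per the strain name in the labels, so genes near it on chromosome 1 were listed. Of 40 tested, 1 was called, Rgs4, a brake on G protein signalling. It measured 4.56, 5.07, 4.85 and 5.08 in KitWsh_MCigeR OVA and 5.85, 6.00, 5.68 and 5.59 in KitWsh OVA (-0.89 ± 0.16, adjusted p = 0.021). The median of the 40 was -0.13.

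Lists for mucus and for type 2 immunity, the hallmarks of allergic airway disease, held no called gene. Of 9 tested goblet cell and mucus genes none passed (limma; 1 lower at an unadjusted p under 0.05), although the list's median was -1.16. Clca1, a product of mucus-making goblet cells, measured 14.00, 7.91, 12.26 and 12.23 in KitWsh_MCigeR OVA, against 13.25, 14.02, 13.05 and 14.21 in KitWsh OVA (-2.03 ± 1.02, adjusted p = 0.396). The gel-forming mucin Muc5ac measured 8.11, 3.56, 4.47 and 5.56 in KitWsh_MCigeR OVA and 7.17, 7.26, 5.96 and 7.40 in KitWsh OVA. Within KitWsh_MCigeR OVA, array 1 was the highest and array 2 the lowest for both genes, and the spread there exceeded the difference between groups. Without KitWsh_MCigeR OVA array 1 the list's median was -1.87 and 1 gene was called, and without array 2 it was -0.45 with none called. Of 8 genes of the interleukin-4 and interleukin-13 response none passed (median -0.33, 1 lower at an unadjusted p under 0.05). Of 5 type 2 cytokine and receptor genes none passed either (0 at an unadjusted p under 0.05), and the cytokines Il4, Il5 and Il13 stood at the floor, 2.19 to 2.21, in both groups.

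Eosinophil and basophil genes had no call among 3 tested (limma; 2 lower at an unadjusted p under 0.05, as were 5.95% of all genes). Prg2, an eosinophil granule protein, measured 5.39, 5.46, 4.15 and 5.39 in KitWsh_MCigeR OVA and 6.13, 6.35, 7.08 and 6.26 in KitWsh OVA (adjusted p = 0.064). The basophil protease gene Mcpt8 measured 2.68, 2.56, 4.09 and 2.68 in KitWsh_MCigeR OVA and 5.40, 6.33, 3.71 and 6.55 in KitWsh OVA (adjusted p = 0.0664). The groups did not overlap for Prg2 and overlapped for Mcpt8. Of 8 inflammatory chemokine and acute response genes, the neutrophil attractant Cxcl5 rose, with 5.81, 5.40, 4.89 and 5.85 in KitWsh_MCigeR OVA and 3.61, 3.69, 3.10 and 3.88 in KitWsh OVA (1.92 ± 0.24, adjusted p = 0.00291, at least 1.40-fold). Saa3, an acute phase protein, measured 11.76, 7.04, 7.98 and 9.51 in KitWsh_MCigeR OVA and 7.72, 7.10, 3.90 and 7.44 in KitWsh OVA (adjusted p = 0.289).

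Lists of structural and signalling genes held no call. Of 20 interferon-induced genes, 14 class II and dendritic cell genes, 18 matrix genes, 10 leukotriene and prostaglandin genes, 11 smooth muscle genes and 13 endothelial genes none passed, with medians of 0.00, -0.18, 0.24, 0.04, 0.13 and 0.00 in that order. The counts at an unadjusted p under 0.05, higher and then lower, were 1 and 0, 0 and 2, 4 and 1, 2 and 0, 2 and 0, and 2 and 2. The elastin gene Eln measured 10.15, 10.48, 8.97 and 9.22 in KitWsh_MCigeR OVA and 7.67, 8.68, 8.34 and 8.44 in KitWsh OVA (adjusted p = 0.0726). Epithelial lists had medians of -0.07 (alveolar type 2 cells, 9 genes), 0.11 (alveolar type 1 cells, 8 genes), 0.02 (club cells, 11 genes) and 0.32 (ciliated cells, 12 genes), with none called by limma and 2, 1, 0 and 6 genes at an unadjusted p under 0.05. All 12 ciliated cell differences were positive, led by Rsph1 at 0.48 (adjusted p = 0.142). Lists for tissue that can be carried along in dissection had no call, with medians of 0.41 for 11 cardiomyocyte genes, 0.16 for 5 adipocyte genes and -0.03 for 8 mesothelial genes, and with 0, 1 and 0 genes at an unadjusted p under 0.05. Among 12 immediate early genes, which respond within minutes to many stimuli, Nr4a1 fell (7.60 ± 0.49 in KitWsh_MCigeR OVA and 8.72 ± 0.15 in KitWsh OVA; adjusted p = 0.0349 by limma, n = 4 each), and it lost its call when any of 6 arrays was left out.

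**Figure D4:**
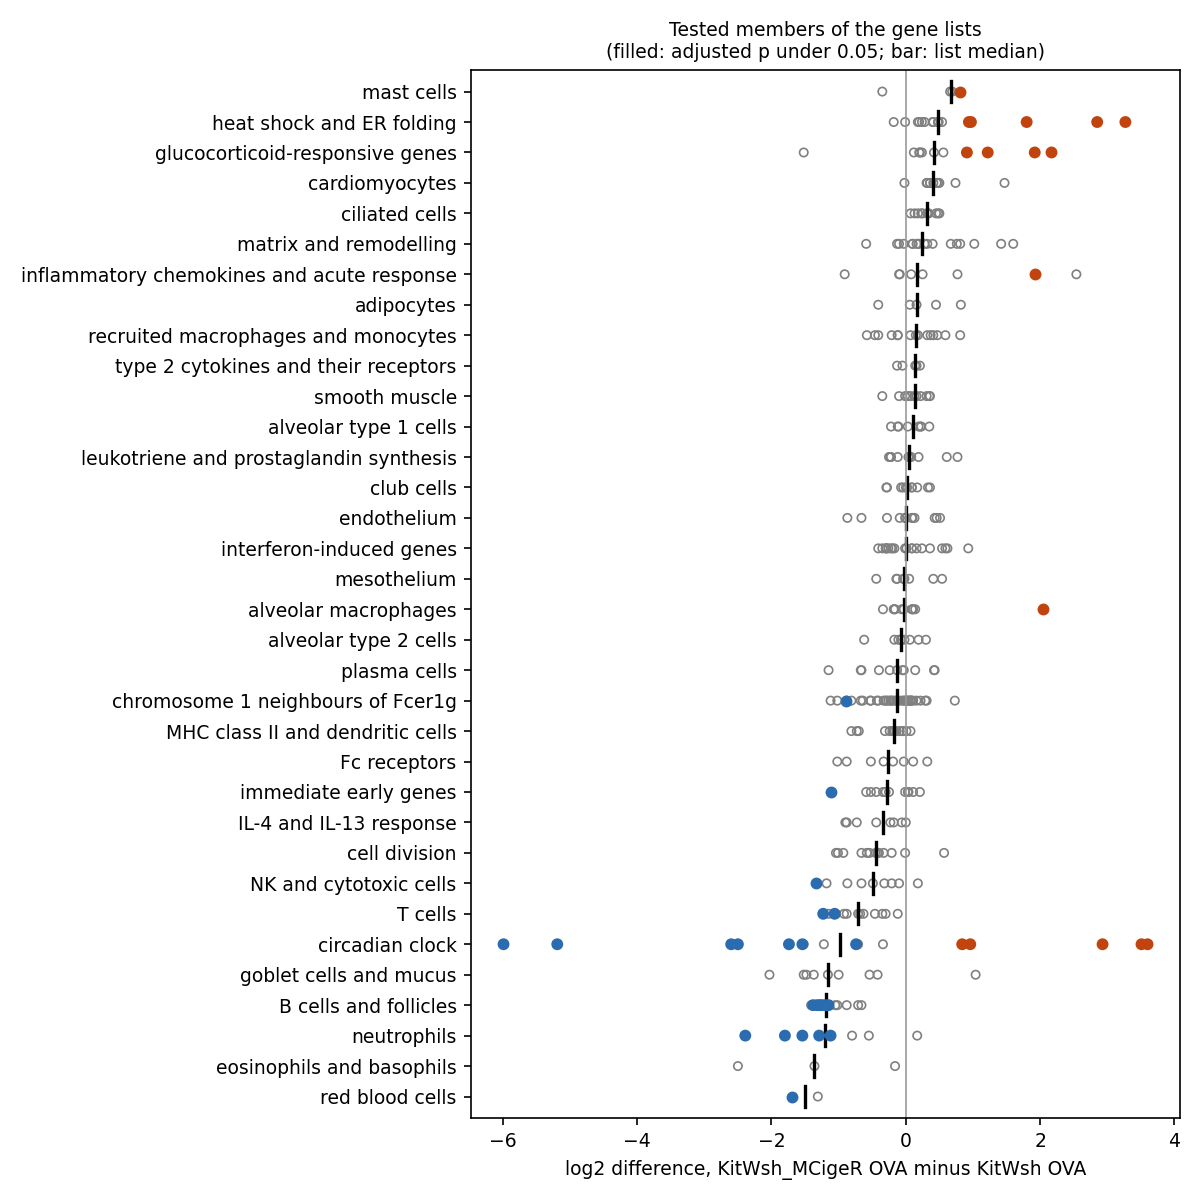
Log2 difference between KitWsh_MCigeR OVA and KitWsh OVA (x axis) of each tested member of the 34 gene lists (y axis, ordered by median). Each point is a gene, filled points passed an adjusted p under 0.05 (orange higher, blue lower) and black bars are list medians. Filled points lie on both sides for the circadian clock, only on the right for heat shock and glucocorticoid-responsive genes and only on the left for B cells and neutrophils.

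The same engraftment was then set against another engraftment, KitWsh_MC, in challenged lungs. Both engrafted groups were challenged alike. KitWsh_MCigeR also bears the FcεRIγ-/- label, so engraftment and any difference in recipient genotype cannot be told apart here. This comparison shares the KitWsh_MCigeR OVA arrays with the comparison above, and each is given by its own values. Here 98 genes (0.885%) were higher and 116 (1.05%) lower in KitWsh_MCigeR OVA than in KitWsh_MC OVA. GAPDH 3' minus 5' values ran from 2.19 to 6.77 in KitWsh_MC OVA and from 1 to 2.13 in KitWsh_MCigeR OVA, without overlap. Beta-actin values ran from 2.21 to 6.23 in KitWsh_MC OVA and from 1.55 to 2.58 in KitWsh_MCigeR OVA. RNA integrity thus moved with the group, and its part in this comparison was not tested. KitWsh_MC OVA array 2 stood furthest apart, with a beta-actin 3' minus 5' value of 6.23 where the other 3 had 2.21 to 2.61. Without it 123 genes were higher and 193 lower, and the 10 genes named here from this comparison kept their calls. Over all settings and omissions tried, 78 values of these 10 genes kept the call and 32 lost it. Leaving out other single arrays gave 13 to 508 called genes. Among the clock genes 1 of 16 was higher and 4 were lower. Arntl was higher by 2.78 ± 0.37 (adjusted p = 0.013) and Dbp lower, at -3.78 ± 0.23 (adjusted p = 0.000244), with 10.13, 9.56, 9.70 and 9.27 on the KitWsh_MC OVA arrays. Spon2 (2.80 ± 0.28, adjusted p = 0.00379), Cyp1a1 (4.03 ± 0.36, adjusted p = 0.00339) and Zbtb16 (3.29 ± 0.49, adjusted p = 0.018) were also higher than in KitWsh_MC OVA. The kinase gene Map3k6 differed by 2.31 ± 0.28 (adjusted p = 0.0081).

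No heat shock and no B cell gene was called against KitWsh_MC OVA by limma, where 5 heat shock genes were higher and 2 B cell genes lower at an unadjusted p under 0.05 (13.8% of all genes were higher and 8.69% lower). Hspa1b measured 11.00, 10.84, 10.87 and 10.48 and Hsph1 10.98, 10.52, 11.19 and 11.13 on the KitWsh_MC OVA arrays, and the Hspa1b difference was 1.07 ± 0.24 (adjusted p = 0.055). The B cell list had a median of -0.38 there. Of the 9 goblet cell genes 2 fell against KitWsh_MC OVA, where the list's median was -1.26. These were the mucin-folding enzyme Agr2 (-3.81 ± 0.74, adjusted p = 0.0403), at 7.46, 3.21, 4.89 and 5.80 in KitWsh_MCigeR OVA and 9.22, 8.34, 9.60 and 9.42 in KitWsh_MC OVA, and the anion exchanger Slc26a4 (-2.74 ± 0.46, adjusted p = 0.0269), at 9.95, 7.42, 7.92 and 8.20 in KitWsh_MCigeR OVA and 10.93, 10.98, 11.30 and 11.23 in KitWsh_MC OVA. Timp1, an inhibitor of matrix proteases, measured 9.63, 6.05, 5.64 and 6.82 in KitWsh_MCigeR OVA and 11.06, 10.41, 11.28 and 10.90 in KitWsh_MC OVA (-3.88 ± 0.73, adjusted p = 0.0403). The photoreceptor cadherin gene Cdhr1 was lower too (-2.41 ± 0.36, adjusted p = 0.018). KitWsh_MCigeR OVA array 1 was the nearest to KitWsh_MC OVA for Agr2, Slc26a4 and Timp1. Goblet cell genes were not the only list with lower calls by limma. Lower too were 3 of 13 cell division, 3 of 12 immediate early, 2 of 8 inflammatory and 2 of 11 plasma cell genes. None of these 4 lists had a higher call, and 1.05% of all genes were lower. All 8 inflammatory differences were negative, among them that of Cxcl5.

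To see which differences were present without OVA, PBS-treated KitWsh_MCigeR lungs were compared with PBS-treated KitWsh lungs. PBS mice had neither OVA immunization nor OVA challenge, so challenged and PBS lungs differ in both steps. KitWsh_MCigeR PBS array 2 was left out, because its median correlation with the other arrays was 0.526 and its beta-actin 3' minus 5' value 8.43, which leaves 2 arrays against 3 in a fit of 13 arrays. There 563 genes (5.09%) were called, 213 (1.92%) higher and 350 (3.16%) lower, and with that array kept in, the count was 22 in all. Of the 97 genes higher after challenge, 85 (87.6%) were also positive in PBS lungs, where 48.2% of all 6284 genes with a positive difference after challenge were. Of the 79 lower genes, 62 (78.5%) were also negative in PBS lungs, where 65.9% of all 4785 genes with a negative difference were. In the same direction 27 of the higher genes were called in PBS lungs (27.8% of the calls after challenge and 12.7% of the PBS calls), as were 29 of the lower genes (36.7% and 8.29%), and 0 were called in the opposite direction. The median difference of the 97 genes was 1.02 after challenge and 0.48 in PBS lungs, and that of the 79 genes was -1.12 after challenge and -0.55 in PBS lungs.

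Clock and heat shock genes differed in PBS lungs as well. Dbp measured 7.32 and 6.29 on the 2 KitWsh_MCigeR PBS arrays used, against 11.39, 11.19 and 10.23 in KitWsh PBS (-4.14 ± 0.34, adjusted p = 9.09e-05). Arntl measured 7.57 and 8.07 in KitWsh_MCigeR PBS and 4.93, 4.71 and 4.82 in KitWsh PBS (3.00 ± 0.31, adjusted p = 0.000642). Npas2 (3.45 ± 0.22, adjusted p = 7.98e-06), Nr1d1 (-3.76 ± 0.53, adjusted p = 0.00409) and Nr1d2 (-2.42 ± 0.25, adjusted p = 0.000642) differed in the same directions as after challenge. Altogether 4 of 16 clock genes were higher and 7 lower in PBS lungs. Hspa1b measured 12.71 and 12.60 in KitWsh_MCigeR PBS and 8.75, 9.88 and 10.40 in KitWsh PBS (2.98 ± 0.40, adjusted p = 0.00333), and 5 of 17 heat shock genes were higher. Rgs4 was lower in PBS lungs too (-1.10, adjusted p = 0.00761), as were 2 other genes near Fcer1g. Endod1 (3.39 ± 0.57, adjusted p = 0.00761) and Gprin3 (3.00 ± 0.62, adjusted p = 0.0194) were higher, and Ccn4, a secreted WNT target (-2.34 ± 0.34, adjusted p = 0.0045), and Klhl42, a ubiquitin ligase adaptor (-2.29 ± 0.39, adjusted p = 0.00808), were lower.

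B cell, neutrophil and T cell genes had no call in PBS lungs. Of 14 B cell genes, 8 neutrophil genes and 13 T cell genes none was called there by limma, with medians of 0.18, 0.02 and -0.24 and with 0, 2 and 1 lower at an unadjusted p under 0.05 (14% of all genes). Treml4, Adgre4 and Ifitm6 had PBS differences of -0.12, -0.34 and -0.54. The 2 tested red cell genes had PBS differences of -1.48 and -1.3, and 1 of them was called. Of 11 alveolar macrophage genes 3 were higher in PBS lungs, where 1.92% of all genes were, with a median of 0.65. Whether the difference between KitWsh_MCigeR and KitWsh itself changed with OVA immunization and challenge together was tested as an interaction over the 13 arrays. Only 4 genes (0.0361%) passed, 2 in each direction, at an adjusted p under 0.05, and 1725 had an unadjusted p under 0.05 (15.6%), 470 of them lower (4.25%). They were Rbmxl2, Efr3b, Ear3 and Rnf166. Ear3, an eosinophil-associated ribonuclease, measured 7.30, 7.93, 7.84 and 8.34 in KitWsh_MCigeR OVA and 8.47, 8.90, 8.69 and 9.04 in KitWsh OVA, and 8.28 and 8.34 in KitWsh_MCigeR PBS against 6.59, 6.74 and 5.95 in KitWsh PBS. The interaction of Ear3 was -2.81 (adjusted p = 0.0288). No member of any list passed the interaction test in limma. The B cell list had a median interaction of -1.08, with all 14 genes negative and 4 at an unadjusted p under 0.05, and the neutrophil list -1.05, with all 8 negative and 3 at an unadjusted p under 0.05, where the median over all genes was 0.12. Treml4 (-1.87, adjusted p = 0.11), Adgre4 (-1.81, 0.11) and Ifitm6 (-1.67, 0.117) did not pass, so these differences are not shown to depend on challenge. Dbp had an interaction of -1.85 (adjusted p = 0.112).

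**Figure D5:**
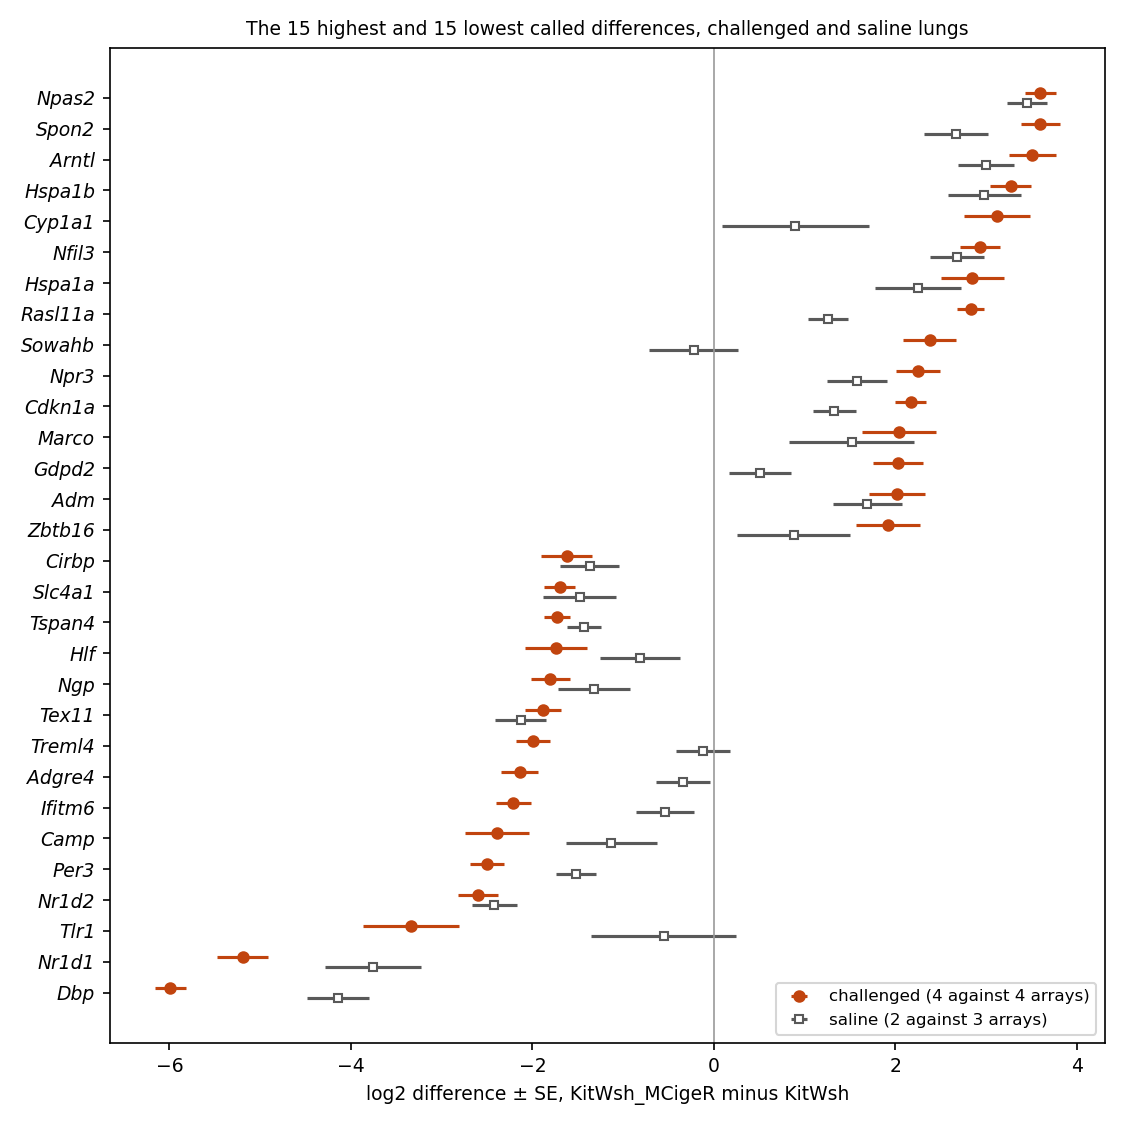
Log2 difference (x axis) between KitWsh_MCigeR and KitWsh for the 15 highest and 15 lowest called genes of the challenged comparison (y axis). Filled orange points are challenged lungs (4 against 4 arrays) and open grey squares PBS lungs, called saline in the plot (2 against 3 arrays), with bars for 1 SE. Npas2, Arntl, Nfil3, Hspa1b, Dbp, Nr1d1 and Nr1d2 lie more than 2 log2 units from 0 in both, whereas Hlf (-0.81 in PBS lungs), Cyp1a1, Sowahb, Tlr1, Treml4, Adgre4 and Ifitm6 lie nearer 0 in PBS lungs.

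Calls were also compared over arrays and probe sets. Of the 30 genes named by rank, 25 kept their call whichever of the 8 arrays was left out, and Cirbp, Hlf, Marco, Tlr1 and Zbtb16 did not. Among the called genes named through lists by the rule below, Bank1, Cxcl5, Hsph1 and S100a8 kept theirs too, and Ccl5, Cd22, Cd28, Cd8a, Cr2, Dnajb1, Fkbp5, Mmp9, Nr4a1, Pdk4, Pou2af1, Rab27b and Rgs4 lost theirs in 1 or more of the 8 omissions. Ms4a1, Cd79b, S100a9, Hspb1, Clock, Cry1, Tef and Bhlhe40 were named outside that rule, and their single calls were not followed over the omissions. Of 88 other probe sets that passed the filter for 59 of the called genes, 87 had the same sign as the probe set used and 1 the opposite. The number of called genes was less stable: it was 72 without KitWsh OVA array 2, 73 without KitWsh OVA array 4 and 357 without KitWsh OVA array 1, against 176 with all 8 arrays. KitWsh OVA arrays 2 and 4 are the pair that correlated at 0.993.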

How the data were processed

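Whole-lung RNA was hybridised to Affymetrix arrays of 45101 probe sets. The deposited values are on the log2 scale and were made by the authors with GCRMA, per the submitters' processing notes, with no version named there. GCRMA corrects background by probe sequence, normalizes between arrays and summarises probes, and low signals pile up near its floor of 2.19. The platform annotation gave 34945 probe sets 1 gene symbol, 932 several and 9160 none (64 more are controls).

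Each of 18193 genes was read through its probe set of highest mean over the 8 arrays, and the 11069 genes above log2 5 on at least 3 arrays were tested with limma 3.58.1 (R 4.3.3; lmFit and eBayes, two-sided) and Benjamini-Hochberg adjustment over all of them, called at an adjusted p under 0.05. Where every array of the lower group was under 5, the fold is given as at least the higher mean over 5. The PBS difference and the interaction came from 13 arrays with 4 group means. The test was checked on simulated data. The array number limits the precision, and no 2 arrays were identical.

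The 34 lists (511 genes, 370 tested) and the members were chosen with earlier results of these data known. The naming rule took the 15 called genes of largest increase, the 15 of largest decrease, and 5 and 5 in each other comparison. It also took up to 4 members of smallest p per list, Kit, Fcer1g and every mast cell and Fc receptor gene. Not every gene taken through a list is described in the text. Immunoglobulin and T cell receptor segments and predicted, RIKEN or clone-named genes were passed over in the ranked sets. Other list members were named after their values were seen. Of the motifs, the E-box and D-box letters were set with the lists, and the ROR and heat shock letters were added after values were seen. Figures were drawn with Python 3.11.15 and matplotlib 3.10.9.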

Additional observations from a re-analysis of the deposited data

Results flagged for a closer look

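Within a group of 4 arrays, 1 array was set apart for a gene when its gap to the nearest other array, divided by the group's range, exceeded Dixon's critical value. Of 328 groups of named genes 33 met this, where chance alone flags about 1 in 20. KitWsh_MCigeR OVA array 3 and KitWsh OVA array 3 accounted for 8 each, KitWsh_MCigeR OVA array 2 for 6 and KitWsh OVA array 1 for 5. All values here are deposited log2 levels unless named as differences.

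KitWsh_MCigeR OVA array 1 was highest for Tlr1 at 4.18 (others 2.75 to 2.98), the low-affinity IgE receptor Fcer2a at 6.93 (5.45 to 5.57) and the mitotic gene Ube2c at 6.74 (5.38 to 5.57). Array 2 of that group was set apart for Cd244a at 4.84, Il1b at 5.71, Ptges2 at 7.27, Cd28 at 5.02, Emcn at 8.76 and Fcgr3 at 8.31. Array 3 of that group was set apart for Nr1d1 at 2.43, Map3k6 at 7.64, Endod1 at 10.83, Rbmxl2 at 5.47, Hdc at 11.02, Prg2 at 4.15, Mcpt8 at 4.09 and Eomes at 3.98.

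KitWsh OVA array 1 was set apart for Treml4 at 6.08, Endod1 at 9.59, Hdc at 10.45, Etv5 at 10.38 and Lrrn4 at 5.15, and array 2 for Efr3b and Bnc1, both at 4.90. Array 3 of KitWsh OVA was lowest for Camp at 5.59, Agr2 at 5.23, Slc26a4 at 4.60, Muc5ac at 5.96, Il33 at 11.18 and Saa3 at 3.90, and was set apart for Mrc1 at 10.32 and Egr2 at 6.41. Array 4 was set apart for Slc34a2 at 13.35.

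The difference between KitWsh_MCigeR and KitWsh changed with OVA immunization and challenge together for 4 genes by the interaction test of limma. Rbmxl2 had an interaction of 1.80 (log2 difference -0.10 in challenged and -1.91 in PBS lungs, adjusted p = 0.0332), Efr3b 1.27 (0.39 and -0.89, adjusted p = 0.0332), Ear3 -2.81 (-0.92 and 1.88, adjusted p = 0.0288) and Rnf166 -1.58 (-0.32 and 1.26, adjusted p = 0.0332). These rest on 2 KitWsh_MCigeR PBS arrays, and none was called once the third was added.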

How the results depend on the processing

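In the challenged comparison of KitWsh_MCigeR with KitWsh, 176 genes were called, against 42 with no filter on low values, 59 when all 36 arrays shared one estimate of spread, and 72 to 357 with 1 array left out. Other settings gave 132 to 198 calls, and the share of higher calls, 55.1% as deposited, was 48.7% after a further quantile normalization and 49.7% after centring each array on its median. Over named genes and settings of this comparison, 2718 values kept their side of the threshold, 158 lost the call and 38 gained one. The sign changed in 15 values of 8 genes, none of them called in either fit. No T cell gene (limma; 7 lower at an unadjusted p under 0.05) and 1 glucocorticoid-responsive gene were called with no filter, and likewise with all 36 arrays (6 T cell genes lower at an unadjusted p under 0.05). Against KitWsh_MC the count of 214 was 59 with no filter, 427 after quantile normalization, 2382 in a fit of 35 arrays and 13 to 508 with 1 array left out. In PBS lungs the count of 563 was 22 with KitWsh_MCigeR PBS array 2 kept, 310 in the fit of 35 arrays, and 47 (without KitWsh_MCigeR PBS array 1) to 682 with 1 array left out. The interaction count of 4 was 0 with that array kept (920 at an unadjusted p under 0.05), 0 in the fit of 35 arrays (1260 at an unadjusted p under 0.05), 26 with no filter, 2 after quantile normalization and 0 to 89 with 1 array left out. Where an omission leaves 1 KitWsh_MCigeR PBS array, that array is assumed to vary like the other groups. The beta-actin difference ran from -0.01 to 0.50 and the GAPDH difference from 0.30 to 0.94 with 1 array left out. Beyond the number of genes or arrays each setting uses, the cause of these shifts was not tested. No paired analysis was possible because the labels number the arrays of the series in one run and give no replicate number that groups share.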
